A study of Mus musculus with 7 samples.

Results

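Among 55416 mouse genes counted in prefrontal cortex (PFC), 114 genes for long noncoding RNAs (lncRNAs) lay on a numbered autosome and had a mean TPM (reads scaled for gene length and library depth) of at least 10 over all 7 libraries. They were chosen by this rule from 9215 autosomal lncRNA genes, so their level is the criterion and not a result. The mean takes in every group, and a lncRNA could therefore enter through 1 group in which it was high. A TPM of at least 10 in each library was met by 57 of the 114. The lowest members were Gm49980, Gm8066 and 9430091E24Rik, with means of 10.22, 10.21 and 10.19 TPM, and the highest genes left outside were Gm6712, Gm13205 and Gm45552, with 9.993, 9.989 and 9.818 TPM.

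LncRNAs are spliced or unspliced transcripts that resemble mRNAs in their making but have no recognised open reading frame of conserved coding function. Some stay in the nucleus and bind splicing or chromatin factors, others bind RNA-binding proteins or miRNAs in the cytoplasm, and others are mainly the precursors from which miRNAs or small nucleolar RNAs (snoRNAs) are cut. Brain expresses many of them, among them clusters that are transcribed from 1 parental chromosome only (imprinted), and many start next to, or run against, a protein-coding gene.

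All mice were female C57BL/6 wild type and received a recombinant adeno-associated virus (AAV) in both sides of the PFC. Ctr mice (3 libraries) received the empty vector, Ref mice (2 libraries) the vector with the human lncRNA PAXIP1-AS1 carrying the reference C allele at rs112651172, and Alt mice (2 libraries) the same lncRNA carrying the alternative G allele. Every vector carried an EGFP reporter, and expression was driven by the human synapsin promoter, which is active in neurons, and whole tissue was sequenced. Mouse has no homologue of the human transcript, and the transgene itself was not analysed here. The age of the mice at RNA collection is not given in the sources used here. RNA was enriched for polyadenylated transcripts, and the labels do not say whether the libraries of a group came from separate animals, so the p-values measure only the spread between these libraries. In bulk tissue, fewer cells of a type and less RNA per cell cannot be told apart.

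Library totals ran from 16655697 counts in Alt 1 to 20750857 in Ctr 3, and the median member had between 145 and 213 counts per library. Alt 1 stood apart from the other libraries. Its chi-square per degree of freedom against Alt 2 was 62.38, where the other pairs within a group lay between 19.68 and 26.65. Against the mean of Ctr, 25 of the 114 lncRNAs deviated by more than 1 on the log2 scale in Alt 1 (12 above and 13 below), compared with 11 in Alt 2 and 1 to 4 in each of the other libraries. These were 21.9% and 9.65% of the set in Alt 1 and Alt 2, where 27.7% and 13.2% of all genes tested deviated as far. The main results for Alt are therefore given with and without Alt 1. A gene is said to be called where its unadjusted p was under 0.05 by the quasi-likelihood test of edgeR. Adjusted values are over all genes tested. Without Alt 1 the group is Alt 2 alone, and its spread is assumed to be that of the other groups. The same holds for the group left with a single library without Alt 2, Ref 1 or Ref 2. Whether a gene is called in such a fit does not rest on replicates of that group. Markers of neurons, astrocytes, oligodendrocytes, microglia and endothelium were all detected, none of them at 3 counts or fewer throughout.

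The set was led by a few transcripts. The median of the mean levels was 16.14 TPM, and Norad alone had 993 TPM, followed by Oip5os1 with 284 TPM and Peg13 with 199 TPM. The summed TPM of the 114 lncRNAs lay between 3388 in Ref 2 and 4103 in Ctr 2 for 6 libraries and was 5352 in Alt 1. Norad accounted for 709.1 to 984.8 TPM of these sums in the 6 libraries and for 1620 TPM in Alt 1. Of the 114, 91 carry only a predicted-gene or clone-type symbol (Gm or Rik). They lay on all 19 autosomes, 26 had a single exon, and their median length of 1900 bases was below that of all 17254 genes tested, 4051 bases.

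**Figure D1:**
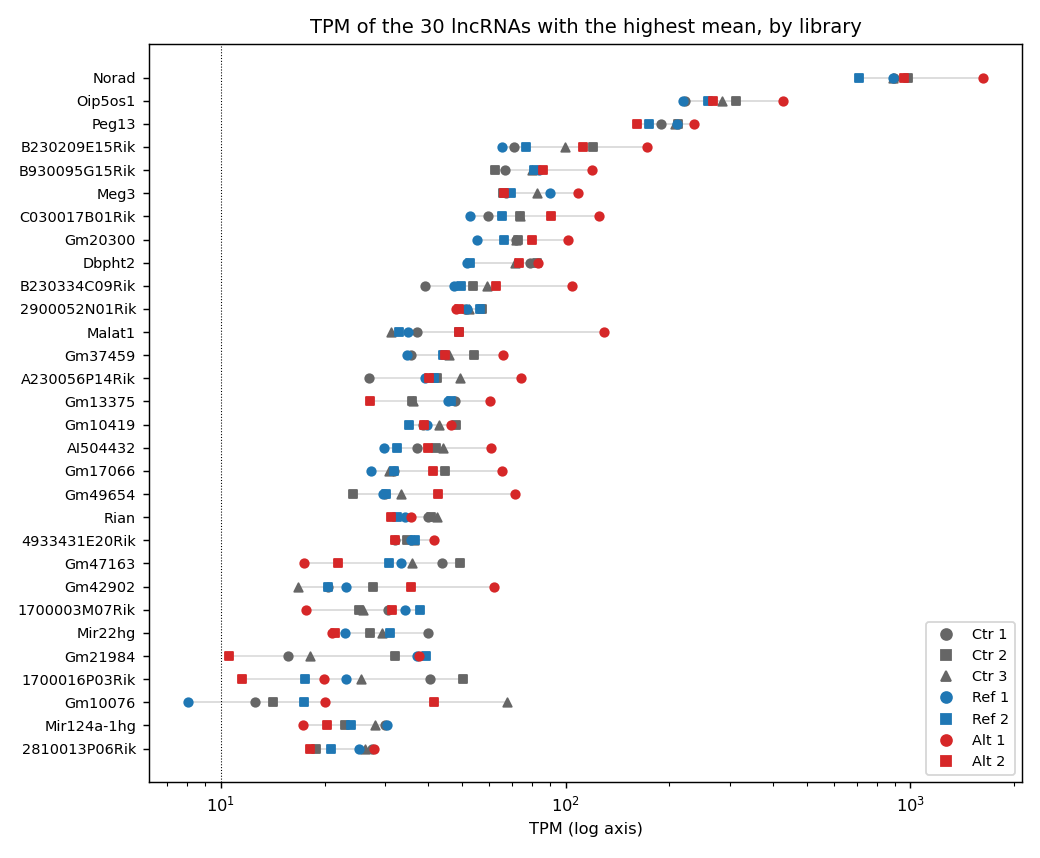
TPM in each of the 7 libraries (log axis) for the 30 lncRNAs with the highest mean, 1 symbol per library, with a dotted line at the mean level of 10 TPM that the rule required. Norad lay near 1000 TPM and far above the next lncRNAs, and Alt 1 was the highest library for Norad (1620 TPM) and for many of the others.

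Norad is a cytoplasmic lncRNA that binds Pumilio proteins, repressors that recognise an 8-base element, and it is known for its part in genome stability. Its 4915-base transcript in GENCODE M21 held 11 matches to the Pumilio element TGTANATA (N is any base, searched on the transcript strand only). Some of them are shown, 5′ to 3′, with the element in capitals, 1 for each letter that stood at the open position of the search (T, A and C).
Norad bases 1523 to 1530: ctgctgTGTATATAgtggac
Norad bases 1624 to 1631: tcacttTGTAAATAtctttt
Norad bases 2451 to 2458: atatatTGTACATActggac
Of 4676 mouse genes whose longest transcript has 4000 to 6000 bases, 41.6% held at least 1 match, and 2 genes, Norad among them, held as many as 11.

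Norad was counted at 1313, 1446 and 1223 CPM in Ctr 1 to 3, 1232 and 1128 CPM in Ref 1 and 2, and 2288 and 1511 CPM in Alt 1 and 2, where CPM are counts scaled to library depth by TMM. Both Alt libraries were above every Ctr and Ref library, Alt 1 by far more than Alt 2. The mean was 1327 ± 112 CPM in Ctr (SD, n = 3), 1180.0 ± 73.2 in Ref (n = 2) and 1900.0 ± 549.9 in Alt (n = 2). The log2 fold change of Alt against Ctr was 0.52 ± 0.18 (SE; called, edgeR with Benjamini-Hochberg adjusted p = 0.158), and without Alt 1 it was 0.19 (not called). Against Ref it was 0.69 ± 0.20 (called, edgeR with Benjamini-Hochberg adjusted p = 0.236), and 0.37 (called) without Alt 1.

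Oip5os1, the mouse Cyrano transcript, is known for triggering the decay of miR-7 through an extensively paired site. The site in its 8300-base transcript is shown 5′ to 3′ with the match to the miR-7 seed in capitals, beside the mature miRNA with its seed (bases 2 to 8) in capitals.
Oip5os1 site: agaacaacaaaatcaccaatGTCTTCCatt
miR-7a-5p: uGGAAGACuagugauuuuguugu
Beyond the seed match, 13 further bases within the 20 bases upstream matched in 1 run. The transcript held 2 matches to GTCTTCC in all, and 49.3% of 1064 transcripts of 7000 to 9500 bases held at least 1.

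Oip5os1 was counted at 549.6, 775 and 662 CPM in Ctr 1 to 3, 511 and 696 CPM in Ref 1 and 2, and 1021 and 711 CPM in Alt 1 and 2. Alt 1 was the highest library, and Alt 2 lay within the range of Ctr. Its log2 fold change was 0.39 ± 0.21 for Alt against Ctr (not called, edgeR with Benjamini-Hochberg adjusted p = 0.317). Against Ref it was 0.52 ± 0.23 (called, edgeR with Benjamini-Hochberg adjusted p = 0.31), which became, without Alt 1, 0.25 (not called). Peg13, an imprinted brain transcript inside Trappc9, was counted at 266, 299 and 274 CPM in Ctr 1 to 3, 280.1 and 267 CPM in Ref 1 and 2, and 321 and 244 CPM in Alt 1 and 2, and its groups overlapped.

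Alt was compared with Ctr to ask what overexpression of the G allele goes along with. By the quasi-likelihood test of edgeR with Benjamini-Hochberg adjustment over 17254 genes, 0 of the 114 passed an adjusted p of 0.05, and 0.0% of all genes did. At an unadjusted p of 0.05, 17 of the 114 lncRNAs were higher in Alt (14.9% of the set and 9.45% of all genes tested), and 5 were lower (4.39% and 10.3%). Of the 17, 3 (Snhg14, Gm16185 and 9430091E24Rik) had a mean under 10 TPM in the 5 libraries outside Alt, so that the rule took them in through the group in which they were high. The median log2 fold change of the set was 0.05, with quartiles of -0.34 and 0.39, and that of all genes was -0.03. DESeq2, whose Wald test gave adjusted p-values under 0.05 for 3.76% of all genes as higher and 2.6% as lower, called 10 lncRNAs higher and 3 lower. Both Alt libraries were above all 3 Ctr libraries for 23 lncRNAs (16.8% of all genes) and below them for 17 (18.1%).

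Without Alt 1, 11 lncRNAs were higher (3.68% of all genes) and 6 lower (4.46%), and 9 of the 17 and 3 of the 5 were among them. The higher count also depended on a control, since 10 were higher without Ctr 1, all of them among the 17, and 3 lower (5.69% and 6.06% of all genes in that fit). The lncRNAs under the TPM limit gave a smaller share of calls, with 3.7% of 1297 other autosomal lncRNAs higher and 4.24% lower, a difference that was not tested. Protein-coding genes gave 10.2% and 11.4%.

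Alt against Ref compares the 2 alleles. By the same test with Benjamini-Hochberg adjustment in edgeR, 0 of the 114 passed an adjusted p of 0.05, and 1 of all genes did (0.0058%). At an unadjusted p of 0.05, 15 lncRNAs were higher in Alt (6.71% of all genes) and 6 were lower (8.83%), and 2 of the 15 (Snhg14 and Gm16054) entered the set only through Alt. The median log2 fold change was 0.16 in the set and -0.04 over all genes. DESeq2 called 9 higher (1.41% of all genes) and 1, Pantr1, lower (1.08%) at an adjusted p of 0.05. Both Alt libraries lay above both Ref libraries for 30 lncRNAs (21.6% of all genes) and below them for 19 (26.1%). Without Alt 1, 13 were higher (2.35%) and 4 lower (4.4%), of which 8 were among the 15 and 1, Pantr1, among the 6. Without Ref 1, only 6 were higher (1.3%) and 1 lower (2.88%), and the median was 0.05. Both comparisons use the same Alt libraries, so they are not independent of each other.

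Ref against Ctr, which asks about the C allele, gave few calls. In edgeR 0 of the 114 lncRNAs passed a Benjamini-Hochberg adjusted p of 0.05 (0.0% of all genes), and in DESeq2 0 were higher (0.029%) and 0 lower (0.0058%). At an unadjusted p of 0.05 in edgeR, 3 were called (3.14% of all genes), of which Gm26782 was higher (2.19%) and Dbpht2 and 1700016P03Rik were lower (0.945%). The median log2 fold change was -0.08 in the set and 0.01 over all genes. Without Ref 1 the median of the set was 0.0617, of the other sign, with 1 higher and 0 lower in edgeR (1.22% and 0.265% of all genes). Both Ref libraries were above all Ctr libraries for 15 lncRNAs (12.4% of all genes) and below them for 17 (10.5%). With the groups scored 0, 1 and 2 in the order Ctr, Ref, Alt, 14 lncRNAs had a positive slope at an unadjusted p of 0.05 (8.85% of all genes), 5 had a negative slope (7.89%), and none passed the adjusted p in edgeR, where DESeq2 passed 7 (2.26% of all genes with a positive and 1.19% with a negative slope). Without Alt 1 there were 7 positive and 6 negative slopes (3.72% and 3.41% of all genes), among them 6 of the 14 and 4 of the 5. In the same fit, 3 lncRNAs were higher in Ref than in Ctr (3.37% of all genes) and 3 lower (2.14%).

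**Figure D2:**
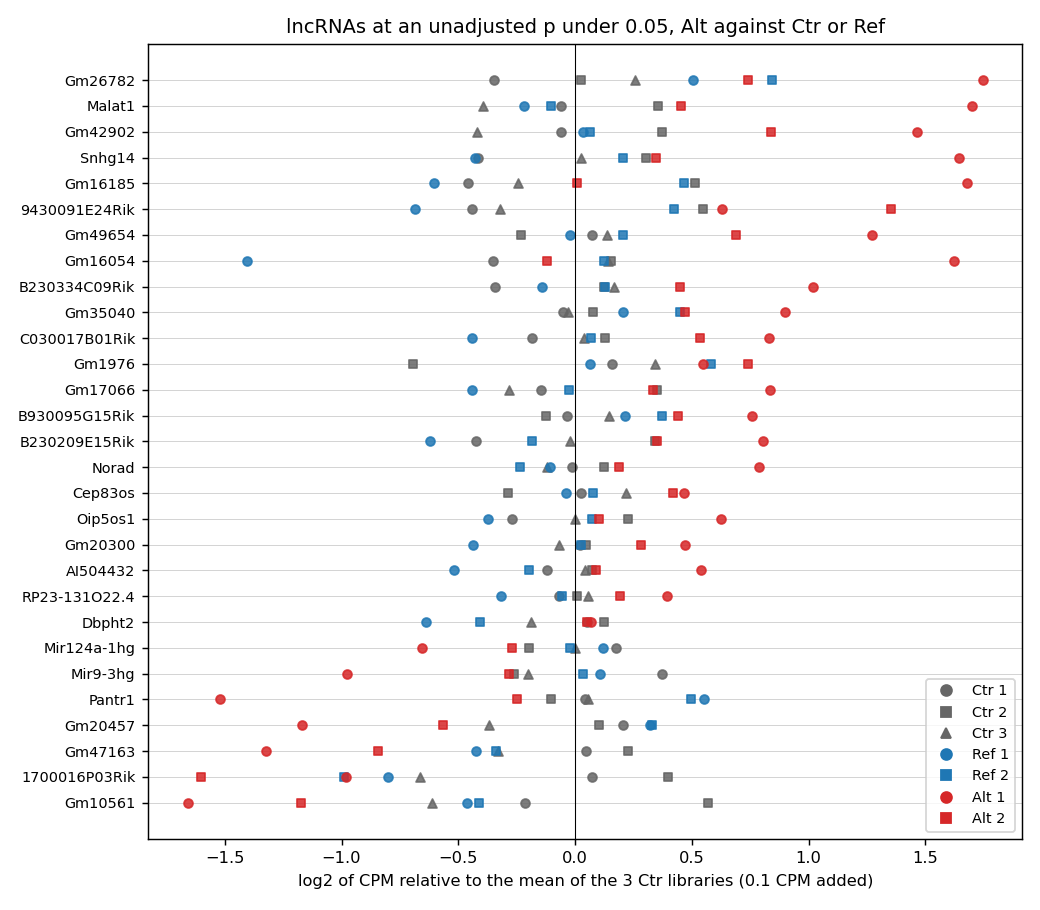
Log2 of CPM relative to the mean of the 3 Ctr libraries (0.1 CPM added) in each library, for every lncRNA at an unadjusted p under 0.05 in Alt against Ctr or Ref. Alt 1 lay outermost for most of them, and Alt 2 lay on the same side but nearer to Ctr for Malat1, Snhg14, Norad and Pantr1.

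Malat1, which gathers in nuclear speckles next to splicing factors, was among the lncRNAs higher in Alt in both comparisons. It was counted at 76.8, 102 and 60.8 CPM in Ctr 1 to 3, 68.7 and 74.4 CPM in Ref 1 and 2, and 259.8 and 109.6 CPM in Alt 1 and 2. Both Alt libraries exceeded every other library, Alt 2 by little and Alt 1 by far. The log2 fold change was 1.21 ± 0.30 against Ctr (called, edgeR with Benjamini-Hochberg adjusted p = 0.12) and 1.37 ± 0.34 against Ref (called, edgeR with Benjamini-Hochberg adjusted p = 0.229). Without Alt 1 it was 0.46 (not called) against Ctr and 0.63 (called) against Ref. DESeq2 gave adjusted p-values of 0.00385 and 0.00763.

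Pantr1 starts head to head with Pou3f3, a transcription factor gene of cortical neurons, and was the 1 lncRNA whose call as lower in Alt than in Ref held with each library left out in turn. It was counted at 16.5, 15.0 and 16.7 CPM in Ctr 1 to 3, 23.6 and 22.7 CPM in Ref 1 and 2, and 5.53 and 13.5 CPM in Alt 1 and 2. The 3 groups did not overlap, with Ref highest and Alt lowest, though Alt 1 was far below Alt 2. On the log2 scale the fold change of Alt against Ref was -1.28 ± 0.34 (called, edgeR with Benjamini-Hochberg adjusted p = 0.229, DESeq2 adjusted p = 0.0334), and without Alt 1 it was -0.77 (called). Against Ctr it was -0.75 ± 0.32 (called, edgeR with Benjamini-Hochberg adjusted p = 0.216), and -0.25 (not called) without Alt 1. Ref against Ctr gave 0.53 ± 0.30 (not called, edgeR with Benjamini-Hochberg adjusted p = 1.0), and 0.52 without Alt 1.

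Miat, a nuclear lncRNA of neurons, had 35.6 ± 4.01 CPM in Ctr, 41.6 ± 2.63 in Ref and 38.8 ± 3.52 in Alt, and its groups overlapped in both comparisons of Alt. A list of 12 mostly nuclear lncRNAs, members or not, also took in Norad. The shares of all genes to read such counts against are 9.45% higher and 10.3% lower against Ctr, and 6.71% and 8.83% against Ref, here and for the lists that follow. For counts without Alt 1 they are 3.68% and 4.46%, and 2.35% and 4.4%. Of the 12, 5 were higher and 2 lower against Ctr at an unadjusted p of 0.05, with a median log2 fold change of 0.47. Against Ref 6 were higher and 2 lower, with a median of 0.65. Without Alt 1 none was called against Ctr in either direction, and 4 were higher and 2 lower against Ref, with medians of 0.18 in both. With a correction for gene length the medians were 0.21 and 0.55. Of 15 lncRNAs listed as studied in neural development or function, 1 (Malat1) was higher and 3 lower against Ctr, with a median of 0.05, and -0.20 with the length correction. Without Alt 1 none was higher and 1 lower, with a median of -0.25. Against Ref 2 were higher and 2 lower with all libraries, and 1 was higher and 4 lower without Alt 1, with a median of -0.15. Of 14 proteins of nuclear speckles and paraspeckles or that bind these RNAs, 2 were higher (Srrm2 and Son) and 3 lower (Pspc1, Hnrnpk and Hnrnpm) against Ctr, and without Alt 1 none was higher and 1 lower.

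Of the 114 lncRNAs, 6 held snoRNA genes on the same strand, which are cut from the introns of their host. Snhg14 is the imprinted host of the SNORD115 and SNORD116 clusters, and its long form runs through Ube3a in the antisense direction. It was counted at 56.4, 92.9 and 76.6 CPM in Ctr 1 to 3, 55.9 and 86.7 CPM in Ref 1 and 2, and 236 and 95.6 CPM in Alt 1 and 2. Alt 1 stood alone, and Alt 2 was only slightly above the highest Ctr library. On the log2 scale the difference was 1.14 ± 0.33 against Ctr (called, edgeR with Benjamini-Hochberg adjusted p = 0.125) and 1.21 ± 0.37 against Ref (called, edgeR with Benjamini-Hochberg adjusted p = 0.236). Without Alt 1 it was 0.35 (not called) and 0.43 (not called).

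Ube3a, on the other strand, was counted at 142, 209 and 180.1 CPM in Ctr 1 to 3, 138 and 176 CPM in Ref 1 and 2, and 369 and 201 CPM in Alt 1 and 2, so that Alt 1 was its highest library too. Its difference on the log2 scale was 0.69 ± 0.24 against Ctr (called, edgeR with Benjamini-Hochberg adjusted p = 0.163), and 0.18 (not called) without Alt 1. The exons of Snhg14 overlap exons of coding genes on the other strand over 6.91% of their length, and whether counting used the strand is not given in the sources used here, so reads of the shared bases cannot be told apart.

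The other snoRNA hosts among the members were not called in any comparison of 2 groups. Over the ordered groups Snhg8 had a negative slope that was called with all 7 libraries, and not without Ctr 2, Ctr 3, Ref 1, Ref 2 or Alt 1. That call was lost in 9 of 15 alternatives, among them the correction for gene length and a fit without a low-count filter. Gas5 was counted at 26.8, 20.5 and 23.9 CPM in Ctr 1 to 3, 28.6 and 27.0 CPM in Ref 1 and 2, and 11.9 and 29.0 CPM in Alt 1 and 2, and Alt 1 was the lowest library. Snhg8 had 3.84 ± 0.831 CPM in Ctr, 2.24 ± 0.248 in Ref and 1.91 ± 0.769 in Alt, with every Alt and Ref library below Ctr. Snhg6 had 4.62 ± 1.90, 3.98 ± 1.53 and 4.45 ± 0.610 CPM. 2410006H16Rik, which holds Snord49a, Snord49b and Snord65, had 46 to 71 counts in 6 libraries and 0 in Alt 1, where 3 counts correspond to 0.195 CPM. Over 19 snoRNA hosts tested, members or not, 1 was higher and 2 were lower against Ctr, with a median log2 fold change of -0.46. Without Alt 1 this median was -0.31. For Ref against Ctr none was called, and the median was -0.19. For Alt against Ref 1 was higher and 2 were lower, with a median of -0.33, and of -0.06 without Alt 1. Several of these hosts, Gas5 among them, are known as targets of nonsense-mediated decay, and of 10 genes for that pathway 1 (Smg1) was higher and 1 (Upf3a) lower against Ctr, and without Alt 1 only Upf3a was called.

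Meg3 and Rian are maternally expressed transcripts of the imprinted Dlk1-Dio3 region, and Rian holds both snoRNA and miRNA genes. Meg3 was counted at 361, 355 and 417 CPM in Ctr 1 to 3, 460.2 and 406 CPM in Ref 1 and 2, and 563 and 385 CPM in Alt 1 and 2, and its groups overlapped. For Meg3 the log2 fold change was 0.33 ± 0.18 against Ctr (not called, edgeR with Benjamini-Hochberg adjusted p = 0.327). Rian was counted at 378, 389 and 379 CPM in Ctr 1 to 3, 307 and 335 CPM in Ref 1 and 2, and 327 and 320.2 CPM in Alt 1 and 2. Every Ref and Alt library lay below the 3 Ctr libraries, which were close together, yet neither difference passed an unadjusted p of 0.05. Its log2 fold change was -0.24 ± 0.14 for Alt against Ctr (not called, edgeR with Benjamini-Hochberg adjusted p = 0.35) and -0.25 ± 0.14 for Ref against Ctr (not called, edgeR with Benjamini-Hochberg adjusted p = 1.0). Alt against Ref was 0.01 ± 0.15, and for Rian, the longest member, it was -0.54 (called) with a correction for gene length.

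Of 8 imprinted lncRNAs tested, members or not, 2 were higher against Ctr and 3 against Ref, and none was lower. Without Alt 1 none was called. Of 23 imprinted coding genes next to them, 5 were higher and 1 (Ndn) was lower against Ctr, with a median of 0.24. Without Alt 1, 3 were higher and 1 lower, with a median of -0.01. Ndn, from the same region as Snhg14, had a log2 fold change of -0.65 ± 0.22 (called, edgeR with Benjamini-Hochberg adjusted p = 0.151), and -0.35 (not called) without Alt 1.

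Of the 114 lncRNAs, 11 held a miRNA gene on the same strand (9.65%), compared with 1.08% of 9101 other autosomal lncRNAs and 3.24% of the 1297 of those that were tested. They held 18 miRNA genes, of which 13 had a mature sequence in the RefSeq table (GRCm38.p6). Some of these are shown 5′ to 3′ with the seed, bases 2 to 8, in capitals, because some hosts share a seed.
miR-132-3p: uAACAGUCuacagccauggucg
miR-212-3p: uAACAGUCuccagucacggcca
miR-9-5p: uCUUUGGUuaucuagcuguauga
miR-9-3p: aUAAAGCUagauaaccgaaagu
miR-22-3p: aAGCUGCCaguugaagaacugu
miR-370-3p: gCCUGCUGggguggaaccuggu
The miR-132 and miR-212 seeds are the same, and both miRNAs lie in 1700016P03Rik. The miR-9 sequences come from 3 hosts, C130071C03Rik, Gm3764 and Mir9-3hg. Mir22hg holds miR-22 and Rian holds miR-370. Mir124a-1hg and Mir124-2hg hold miR-124, whose name only is given here.

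None of the 11 hosts was higher in Alt against Ctr or Ref at an unadjusted p of 0.05. Over the ordered groups Gm3764 had a positive slope that was called, and lost in 9 of 15 alternatives. 1700016P03Rik had a negative slope that was called, and lost in 1 of the 15. Against Ctr 2 were lower, 1700016P03Rik and Mir124a-1hg, with a median log2 fold change of -0.28 over the 11 (of all genes 10.3% were lower). Against Ref 2 were lower, Mir124a-1hg and Mir9-3hg, with a median of -0.20. Without Alt 1, 2 were lower against Ctr, 1700016P03Rik and Mir124-2hg, and none against Ref.

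1700016P03Rik was counted at 10.4, 13.0 and 6.18 CPM in Ctr 1 to 3, 5.61 and 4.91 CPM in Ref 1 and 2, and 4.94 and 3.18 CPM in Alt 1 and 2. Every Ref and Alt library lay below the lowest Ctr library, and here Alt 2, not Alt 1, was the lowest. Against Ctr the log2 fold change was -1.28 ± 0.38 for Alt (called, edgeR with Benjamini-Hochberg adjusted p = 0.127), and -1.62 (called) without Alt 1. For Ref against Ctr it was -0.90 ± 0.37 (called, edgeR with Benjamini-Hochberg adjusted p = 1.0), a call lost without Ctr 1, Ctr 2, Ref 1 or Ref 2. The miR-132 and miR-212 gene pair is known to be induced by neuronal activity through CREB. The exons of the host overlap those of Ovca2 on the other strand over 74.3% of their length, so its counts may include reads of that gene if strand was not used. With a correction for gene length Alt against Ctr was not called.

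Mir124a-1hg, host of the neuronal miR-124, was counted at 42.6, 33.0 and 37.7 CPM in Ctr 1 to 3, 41.1 and 37.2 CPM in Ref 1 and 2, and 23.9 and 31.3 CPM in Alt 1 and 2. Both Alt libraries were below all others. Its difference on the log2 scale was -0.45 ± 0.19 against Ctr (called, edgeR with Benjamini-Hochberg adjusted p = 0.229), and without Alt 1 it was -0.27 (not called). Mir9-3hg had 20.7 ± 5.33 CPM in Ctr, 21.7 ± 0.779 in Ref and 13.7 ± 4.58 in Alt, with a log2 fold change of -0.66 ± 0.29 against Ref (called, edgeR with Benjamini-Hochberg adjusted p = 0.315), and -0.34 (not called) without Alt 1. For the other miR-9 hosts the differences had opposite signs. C130071C03Rik had a log2 fold change of -0.28 ± 0.20 and Gm3764 of 0.43 ± 0.20 against Ctr (not called, edgeR with Benjamini-Hochberg adjusted p = 0.253 for Gm3764).

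Mir22hg had 18.1 ± 4.15 CPM in Ctr, 15.8 ± 4.85 in Ref and 12.5 ± 1.15 in Alt, and its log2 fold change of Alt against Ctr was -0.54 ± 0.27 (not called, edgeR with Benjamini-Hochberg adjusted p = 0.292). Mir124-2hg was counted at 28.8, 33.0 and 33.5 CPM in Ctr 1 to 3, 24.8 and 25.1 CPM in Ref 1 and 2, and 35.1 and 19.7 CPM in Alt 1 and 2, so that the Alt libraries lay on either side of all the others. Its log2 fold change against Ctr was -0.22 ± 0.24 with both Alt libraries and -0.69 without Alt 1, where Alt 2 was the lone Alt library. Host levels say nothing of the mature miRNAs, which were not measured.

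**Figure D3:**
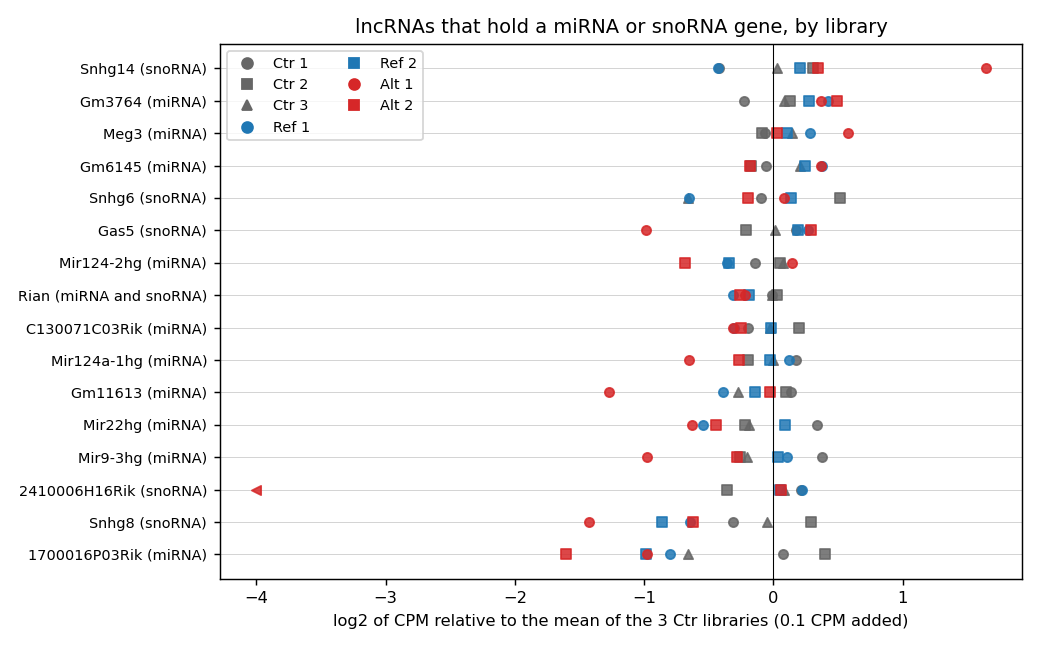
Log2 of CPM relative to the mean of the 3 Ctr libraries (0.1 CPM added) in each library, for the lncRNAs that hold a miRNA or snoRNA gene, with a triangle where the library lay beyond the axis. Snhg14 was far above in Alt 1 alone, 2410006H16Rik had 0 counts in Alt 1, and both Alt libraries lay below Ctr for 1700016P03Rik, Snhg8, Mir9-3hg and Mir22hg.

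Most of the lncRNAs called in Alt were uncharacterised. C030017B01Rik and Gm49654, both of a single exon and clear of coding genes, were higher in both comparisons and with each of the 7 libraries left out in turn. C030017B01Rik was counted at 57.4, 71.3 and 67.0 CPM in Ctr 1 to 3, 48.0 and 68.5 CPM in Ref 1 and 2, and 116 and 94.6 CPM in Alt 1 and 2. Both Alt libraries lay above all others, with no overlap. In log2 units it differed by 0.69 ± 0.19 against Ctr (called, edgeR with Benjamini-Hochberg adjusted p = 0.121) and 0.85 ± 0.21 against Ref (called, edgeR with Benjamini-Hochberg adjusted p = 0.229). Without Alt 1, where Alt 2 was the lone Alt library, it was 0.54 and 0.71.

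Gm49654 was counted at 19.8, 16.0 and 20.7 CPM in Ctr 1 to 3, 18.5 and 21.7 CPM in Ref 1 and 2, and 45.5 and 30.4 CPM in Alt 1 and 2. Here too the Alt libraries were the highest, Alt 1 above Alt 2. The log2 fold change was 1.01 ± 0.22 against Ctr (called, edgeR with Benjamini-Hochberg adjusted p = 0.12) and 0.91 ± 0.25 against Ref (called, edgeR with Benjamini-Hochberg adjusted p = 0.23). Without Alt 1 it was 0.69 (called) and 0.61 (called). It was outside the rule for named genes and was chosen after its values were seen.

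Gm26782, which overlaps Tep1 on the other strand, had the largest log2 fold change against Ctr of the lncRNAs called higher. It was counted at 10.9, 14.1 and 16.6 CPM in Ctr 1 to 3, 19.7 and 24.9 CPM in Ref 1 and 2, and 46.7 and 23.3 CPM in Alt 1 and 2. The Ref libraries lay above all Ctr libraries, and Alt 1 was far above the next value while Alt 2 fell between the Ref libraries. On the log2 scale the difference was 1.33 ± 0.29 for Alt against Ctr (called, edgeR with Benjamini-Hochberg adjusted p = 0.12) and 0.75 (called) without Alt 1. For Ref against Ctr it was 0.69 ± 0.29 (called, edgeR with Benjamini-Hochberg adjusted p = 1.0), a call lost without Ctr 1, Ctr 2 or Ref 2.

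B930095G15Rik, on the strand of Farp1 and within its span, had 95.5 ± 9.23 CPM in Ctr, 117 ± 9.10 in Ref and 146 ± 22.6 in Alt and the groups did not overlap. The log2 fold change of Alt against Ctr was 0.61 ± 0.16 (called, edgeR with Benjamini-Hochberg adjusted p = 0.121), and 0.44 (called) without Alt 1. Its reads could include unspliced Farp1 transcripts, which the counts cannot separate. B230334C09Rik, antisense to Lrrc40, was counted at 104, 144 and 148 CPM in Ctr 1 to 3, 119 and 144 CPM in Ref 1 and 2, and 267 and 179.7 CPM in Alt 1 and 2. Its log2 fold change of Alt against Ctr was 0.76 ± 0.21 (called, edgeR with Benjamini-Hochberg adjusted p = 0.122), and 0.45 (called) without Alt 1, and against Ref it was 0.76 ± 0.23 (called, edgeR with Benjamini-Hochberg adjusted p = 0.236), or 0.46 (not called) without Alt 1. The call against Ref was lost without Ref 1 too.

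B230209E15Rik was counted at 36.9, 62.9 and 48.8 CPM in Ctr 1 to 3, 32.2 and 43.5 CPM in Ref 1 and 2, and 86.7 and 63.1 CPM in Alt 1 and 2. Both Alt libraries were above the others, Alt 2 by little. Its log2 fold change was 0.60 ± 0.23 against Ctr (called, edgeR with Benjamini-Hochberg adjusted p = 0.191), and 0.35 (not called) without Alt 1. Against Ref it was 0.98 ± 0.26 (called, edgeR with Benjamini-Hochberg adjusted p = 0.229), and 0.75 (called) without Alt 1. Gm20300 had 72.6 ± 2.97 CPM in Ctr, 63.8 ± 14.4 in Ref and 94.4 ± 8.71 in Alt, with a log2 fold change of 0.57 ± 0.19 against Ref (called, edgeR with Benjamini-Hochberg adjusted p = 0.236). That was 0.48 (called) without Alt 1 and 0.34 (not called) without Ref 1. Against Ctr Gm20300 had 0.38 ± 0.17 (called, edgeR with Benjamini-Hochberg adjusted p = 0.239), or 0.28 (not called) without Alt 1, and that call was lost in 6 of 16 alternatives. Gm42902, inside Ephx4 on the other strand, had 4.20 ± 1.19, 4.35 ± 0.0639 and 9.68 ± 2.96 CPM, and its log2 fold change against Ctr was 1.20 ± 0.34 (called, edgeR with Benjamini-Hochberg adjusted p = 0.125). Without Alt 1 it was 0.86 (called), and against Ref it was 1.15 ± 0.39 (called, edgeR with Benjamini-Hochberg adjusted p = 0.237), or 0.81 (not called) without Alt 1, and it was not called without Ref 1 either.

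Gm16054 had the largest log2 fold change against Ref among those called higher, 1.47 ± 0.59 (called, edgeR with Benjamini-Hochberg adjusted p = 0.275), yet its groups overlapped. Gm16054 was in the set only through its level in Alt. It was counted at 4.02, 5.76 and 5.71 CPM in Ctr 1 to 3, 1.89 and 5.64 CPM in Ref 1 and 2, and 16.1 and 4.74 CPM in Alt 1 and 2, with Alt 1 the highest and Ref 1 the lowest library. Without Alt 1 it was 0.35 (not called). Its exons overlap those of Adgrl3 on the other strand over 87% of their length. 9430091E24Rik, just above the limit of the set, had 2.87 ± 1.19 CPM in Ctr and 5.98 ± 2.11 in Alt, with Alt 2 as the higher Alt library. Its log2 fold change was 1.06 ± 0.49 (called, edgeR with Benjamini-Hochberg adjusted p = 0.252). As its level in Alt let it into the set, that difference is not independent of the rule. Without Alt 2 it was 0.65 (not called), and the call was lost without Ctr 1 or Ctr 3 too.

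Among the lncRNAs lower for Alt against Ctr, Gm10561, Gm47163 and 1700016P03Rik held with each library left out in turn. Gm10561, antisense to Rftn2, was counted at 7.25, 12.6 and 5.48 CPM in Ctr 1 to 3, 6.09 and 6.31 CPM in Ref 1 and 2, and 2.60 and 3.68 CPM in Alt 1 and 2. Both Alt libraries were the lowest, and its log2 fold change was -1.42 ± 0.40 against Ctr (called, edgeR with Benjamini-Hochberg adjusted p = 0.124), and -1.19 (called) without Alt 1. Gm47163, which starts head to head with Shc2, was counted at 21.7, 24.6 and 16.7 CPM in Ctr 1 to 3, 15.6 and 16.6 CPM in Ref 1 and 2, and 8.32 and 11.7 CPM in Alt 1 and 2. The Alt libraries lay below the Ref libraries, and these just below Ctr. Against Ctr the log2 fold change was -1.07 ± 0.25 (called, edgeR with Benjamini-Hochberg adjusted p = 0.12), and -0.85 (called) without Alt 1. Against Ref, Gm10561 differed by -0.98 ± 0.42 and Gm47163 by -0.69 ± 0.27 on the log2 scale, and both were called. Without Alt 1 they were -0.74 (not called) and -0.46 (not called). Over the 16 alternatives run, the call was lost in 7 for Gm10561 and in 6 for Gm47163. Gm20457 was lower against Ref, with 1.42 ± 0.441 CPM in Alt and 3.30 ± 0.0143 in Ref (called, edgeR with Benjamini-Hochberg adjusted p = 0.32), a call lost in 14 of the 16.

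Dbpht2 differed in Ref rather than in Alt. It was counted at 126, 132 and 106 CPM in Ctr 1 to 3, 77.8 and 91.5 CPM in Ref 1 and 2, and 127 and 126 CPM in Alt 1 and 2, and both Ref libraries lay below all of the others. The log2 fold change of Ref against Ctr was -0.52 ± 0.16 (called, edgeR with Benjamini-Hochberg adjusted p = 1.0), and that of Alt against Ref was 0.58 ± 0.17 (called, edgeR with Benjamini-Hochberg adjusted p = 0.236). Neither was called without Ref 1. Alt against Ctr was 0.06 ± 0.16. Levels of glial markers differed in the Ref libraries too, and the part of any marker in the results was not tested. The summed level of 8 oligodendrocyte markers was 2278 to 3182 CPM in Ctr, 3855 and 4763 CPM in Ref, and 2723 and 2215 CPM in Alt 1 and 2, and at an unadjusted p of 0.05 in edgeR 7 of the 8 were higher for Ref against Ctr and 7 lower for Alt against Ref. For 7 astrocyte markers the sum was 4866 to 6555 CPM in Ctr, 6617 and 8281 CPM in Ref, and 11100 and 7662 CPM in Alt, yet 1 of the 7 was called for Alt against Ctr, with a median log2 fold change of 0.10, and none against Ref, with a median of -0.16. Of 6 markers of inhibitory neurons, 3 were lower for Alt against Ctr and none was higher, and without Alt 1 only 1 was lower.

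**Figure D4:**
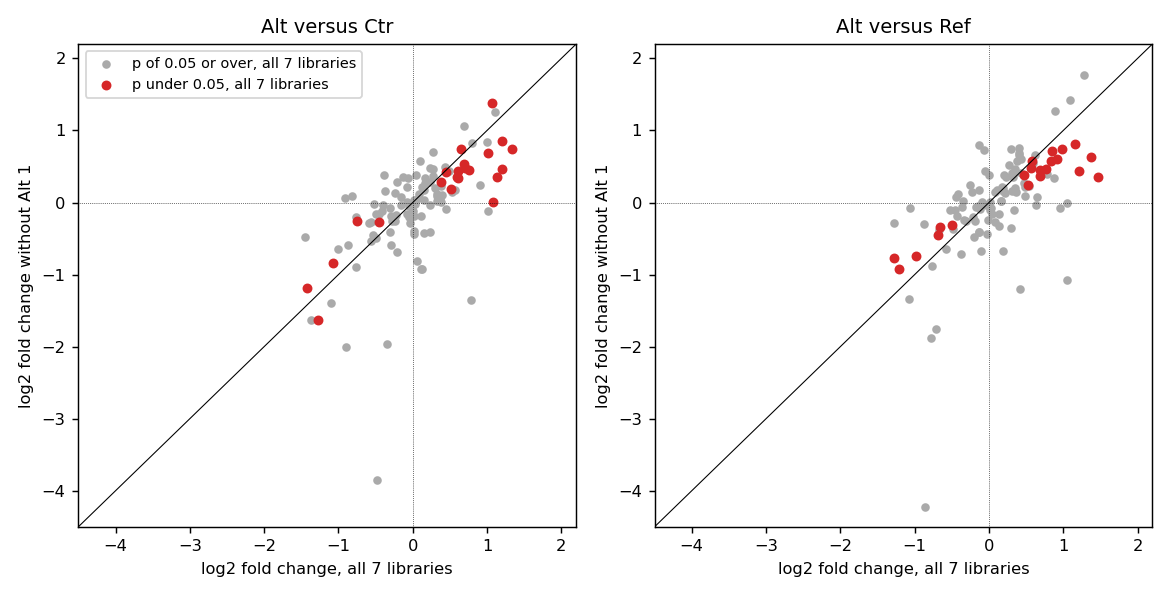
Log2 fold change of each of the 114 lncRNAs with all 7 libraries (horizontal axis) and without Alt 1 (vertical axis), against Ctr on the left and against Ref on the right, with the line of equal values. Most lncRNAs at an unadjusted p under 0.05 (red) lie closer to 0 without Alt 1, and all of them keep their sign.

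Beside Gm20300, the remaining lncRNAs higher against Ctr at an unadjusted p of 0.05 were Gm17066, Gm35040, Cep83os, Gm1976 and Gm16185, with log2 fold changes from 0.44 (Cep83os) to 1.08 (Gm16185). Without Alt 1 they were 0.34 (not called), 0.47 (called), 0.42 (not called), 0.74 (called) and 0.01 (not called) in that order. Gm16185 was counted at 5.96, 11.8 and 6.92 CPM in Ctr 1 to 3, 5.37 and 11.4 CPM in Ref 1 and 2, and 26.5 and 8.25 CPM in Alt 1 and 2, and its groups overlapped. Against Ref the remaining ones were AI504432, Gm17066 and RP23-131O22.4, with log2 fold changes from 0.48 (RP23-131O22.4) to 0.83 (Gm17066), and without Alt 1 they were 0.45 (called), 0.57 (not called) and 0.39 (not called). These, and Gm3764 and 2410006H16Rik above, were outside the rule for named genes and were chosen after their values were seen.

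Leaving out each of the 7 libraries in turn, 7 of the 17 lncRNAs higher against Ctr stayed called every time, namely B930095G15Rik, C030017B01Rik, B230334C09Rik, Gm49654, Gm42902, Gm35040 and Gm26782. Of the 15 higher than in Ref, 5 did so, namely Norad, B230209E15Rik, C030017B01Rik, Malat1 and Gm49654. Of the 6 lower than in Ref only Pantr1 did, and none of the 3 calls of Ref against Ctr. Where an Alt or Ref library was left out, that group was a single library, so these lists are not replicated support. With 3 libraries against 2, an exact two-sided permutation test cannot go below p = 0.1, and with 2 against 2 it cannot go below 0.333. Over all 16 alternatives, the calls lost most often were Gm20457 (14), Mir9-3hg (11), RP23-131O22.4 (9), Mir124a-1hg (8) and Oip5os1 (8) against Ref, and Mir124a-1hg (9), Gm17066 (8), Cep83os (8) and Pantr1 (7) against Ctr.

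Position relative to coding genes was described from the coordinates of the table, whose genome build is not named, so none are printed. The span of 43 lncRNAs (37.7%) overlapped a coding gene on the other strand, compared with 37.2% of the other autosomal lncRNAs and 51.0% of the 1297 of those that were tested. For a start head to head with a coding gene these were 22 lncRNAs (19.3%), 8.36% and 19.1%. Of all genes 9.45% were higher and 10.3% lower for Alt against Ctr. Of the 43, 6 were higher and 3 lower, with a median log2 fold change of 0.06. Of the 62 that overlapped no coding gene, 9 were higher and 2 lower, with a median of 0.08. Of the 22 that started head to head, 1 was higher and 2 were lower, with a median of -0.05. With a correction for gene length the medians of these 3 classes were 0.27, 0.27 and 0.20, so that the last turned sign. Without Alt 1 the counts were 5 and 3, 5 and 2, and 0 and 1.

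The differences between groups moved with the length and base composition of the genes. Over the 114 lncRNAs, Spearman's rho between the log2 fold change of Alt against Ctr and gene length was 0.252, and over all genes tested it was 0.333. Against Ref it was 0.117 in the set and 0.312 over all genes, and for Ref against Ctr it was 0.2 and 0.0418. With the share of G and C in the longest transcript, rho for Alt against Ref was -0.385 in the set and -0.323 over all genes. For Alt against Ctr it was -0.221 and -0.2, and for Ref against Ctr it had the other sign, 0.36 and 0.218. The genes share their libraries and are not independent, so no p is given. The 15 lncRNAs higher than in Ref had a median of 39.9% G and C, the 6 lower 51.5%, and the other 93 had 47.8%.

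**Figure D5:**
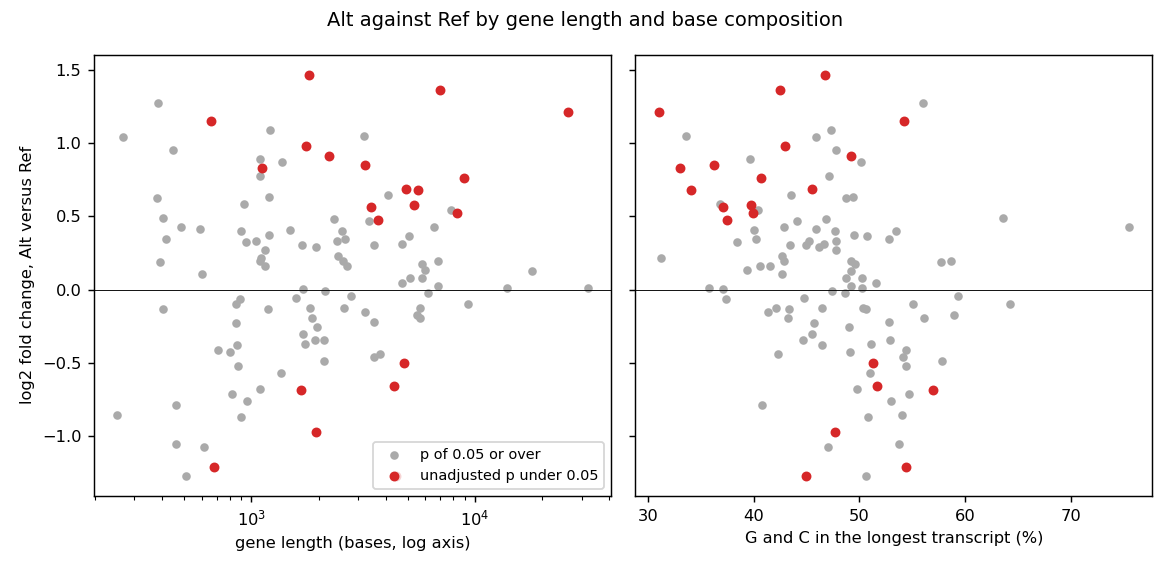
Log2 fold change of Alt against Ref for each of the 114 lncRNAs by gene length in bases (left, log axis) and by the percentage of G and C in the longest transcript (right). The lncRNAs higher in Alt at an unadjusted p under 0.05 lie mostly at low G and C content, with a median of 39.9%.

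When the dependence on gene length was removed, 27 lncRNAs were higher and 6 lower for Alt against Ctr (8.22% and 8.08% of all genes). Against Ref 28 were higher and 4 lower (6.67% and 6.31%). The medians were 0.25 and 0.38 in the set, and 0.01 and 0.02 over all genes. Over the 1297 other autosomal lncRNAs tested they were 0.34 and 0.32, so that the shift was not particular to the set. When the dependence on base composition was removed instead, 13 were higher and 7 lower against Ctr (11.6% and 9.6%) and 12 higher and 3 lower against Ref (8.36% and 6.64%). For Ref against Ctr 1 was higher and 3 lower with the length correction (2.64% and 2.07%), and 1 higher and 2 lower with the base composition correction (1.96% and 1.09%). With the length correction more lncRNAs were higher than lower in both Alt comparisons. With the base composition correction this was so too, but it was so for all genes as well. Against Ctr the 13 of 114 lay at the share of all genes, 11.6%, and not above it. Of the calls against Ctr, 12 of the 17 higher and 4 of the 5 lower held under the base composition correction. Against Ref 10 of the 15 higher and 2 of the 6 lower held.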

How the data were processed

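A single table was deposited by the authors, giving for each gene its read count in each library, and beside it TPM and FPKM values that the authors computed from these counts and the gene length. The submitters' processing notes name STAR and featureCounts without versions, and hg19, a human build that cannot be that of this mouse table. The genome build, the annotation and the strand setting of the counting are not given in the sources used here. TPM values chose the set and counts entered every test. FPKM values were not used.

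Groups came from the sample titles. Counts were fitted in R 4.3.3 with edgeR 4.0.16 (TMM, filterByExpr by group, glmQLFit and glmQLFTest on group means, all 7 libraries), and all 114 lncRNAs were among the 17254 genes kept. DESeq2 1.42.0 was an alternative. Fold changes are on the log2 scale with standard errors, and p-values were adjusted by Benjamini-Hochberg over all genes tested. Length and base composition were corrected by a loess curve of span 0.3 per library, entered as offsets, with base composition from the longest GENCODE M21 transcript matched by gene ID. Matched IDs had the same span as in GENCODE M21 for only 1494 of 52083 genes, so no coordinates are printed. Scripts were tested on simulated data. The depth of 16655697 to 20750857 counts per library limits the precision, and a level of 3 counts or fewer was taken as the smallest the depth can show.

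The members and the gene lists were chosen with earlier results of these data known. Genes are named by a rule that takes the 10 members with the highest mean TPM, the 4 largest differences in each direction and comparison among members at an unadjusted p of 0.05, up to 8 members of each gene list, and 3 genes on either side of the TPM limit. The base composition correction, the adjusted counts and the list counts without Alt 1 were chosen after seeing the data.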

Additional observations from a re-analysis of the deposited data

How the results depend on the processing

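The correction for gene length gave 27 lncRNAs higher and a median of 0.25 for Alt against Ctr, 28 and 0.38 for Alt against Ref, and 25 with a positive slope over the ordered groups. Replicate numbers did not pair the libraries, with correlations between same-numbered libraries from -0.0984 to 0.0702. As a replicate block they gave 11 higher for Alt against Ctr, 3 lower for Alt against Ref and 0 higher for Ref against Ctr. The block with the length correction gave a median of 0.24 for Alt against Ctr, 23 higher, 2 lower and a median of 0.37 for Alt against Ref, and 22 positive slopes.

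At an adjusted p of 0.05, DESeq2 called 13 for Alt against Ctr, 10 for Alt against Ref and 7 slopes, and edgeR run on unfiltered counts gave 14, 10 and 12 (5.52%, 3.16% and 4.22% of all genes in that fit). For Alt against Ref, DESeq2, the base composition correction and a fit of only the groups compared each called 3 lower at an unadjusted p. That fit called 3 lower for Alt against Ctr, and 3 higher and 5 lower for Ref against Ctr. Without the filter 3 were higher for Ref against Ctr, and the base composition correction gave 8 negative slopes. The difference of Rian between Alt and Ref changed sign to -0.54 with the length correction, -0.55 with the block added and -0.39 with the base composition correction. A mean TPM of at least 5 would give 246 lncRNAs, of at least 20 would give 40, and a TPM of 10 in each library 57.

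Leaving out 1 library at a time, Alt against Ctr had 10 to 25 higher, 3 to 20 lower, 0 to 28 at an adjusted p of 0.05 in edgeR and a median of 0.01 to 0.14. Alt against Ref had 6 to 26 higher, 1 to 17 lower, 0 to 23 at an adjusted p and a median of 0.0518 to 0.16. Ref against Ctr had 0 to 3 higher, 0 to 3 lower and a median of -0.15 to 0.0617. The ordered groups had 7 to 19 positive and 3 to 10 negative slopes. The highest lower and adjusted counts for Alt (20 and 28 against Ctr, 17 and 23 against Ref) came without Alt 2 (18.9%, 18.3%, 17.3% and 14.4% of all genes), where Alt 1 was the lone Alt library and was assumed to vary like the others. The cause of these shifts was not tested.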

Other observations

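Some lncRNAs were set apart by 1 library. Beside 2410006H16Rik, Gm27202 had 0 counts in Alt 1 and 7 to 68 counts elsewhere, and Gm49980 had 4 counts in Alt 1 and 43 to 141 elsewhere. Gm45353 had 1 count in Alt 2 and 14 to 30 in the other libraries. Control libraries were concerned too, since Gm41505 had 23 counts in Ctr 1 and 97 to 183 elsewhere, Gm8066 had 4 counts in Ctr 2 and 21 to 43 elsewhere, and Gm17201 had 117 counts in Ctr 2 and 27 to 56 elsewhere.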
